A study of Mus musculus with 14 samples.

Results

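The comparison described here set TER119-SIINFEKL against free SIINFEKL, the same peptide antigen with and without erythrocyte binding, in ovalbumin-specific CD8+ T cells of the mouse. It was chosen by its sample labels and takes 5 of the 14 libraries of the series, 3 of TER119-SIINFEKL and 2 of SIINFEKL. SIINFEKL is a short peptide of chicken ovalbumin that is shown to CD8+ T cells on the class I molecule H-2Kb. TER119-SIINFEKL joins it to a fragment of an antibody to the mouse erythroid surface antigen TER119. No group received the peptide on a fragment that does not bind erythrocytes. Binding thus cannot be told apart from other properties of the fragment, and an effect of binding below is the whole difference between bound and free antigen. All groups used OT-I cells. These bear the congenic marker CD45.1 and a transgenic antigen receptor specific for SIINFEKL. They were labelled with the dye CFSE and transferred by vein into CD45.2+ C57BL/6 recipients, and the labels give an age of 8 to 12 weeks. The recipients received 223 pmol of TER119-SIINFEKL or of SIINFEKL by vein on day 1 after transfer. The other antigen groups received the same molar dose of ERY1-OVA, whole ovalbumin linked to a peptide (ERY1) that binds erythrocytes, or of OVA, unlinked ovalbumin (3 libraries each), and the Naive group (3 libraries) came from recipients given saline. Spleens were taken on day 4, erythrocytes were lysed, and OT-I cells were sorted as viable cells positive for CD3e, CD8 and CD45.1. The recipients kept their own T cells, which the CD45.1 gate was meant to leave out. By this design all libraries were meant to describe 1 receptor specificity and not a mixed repertoire, and receptor sequences were not examined.

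A naive CD8+ T cell that meets its antigen leaves the resting state, enlarges, copies its genome and divides several times within days. Genes for replication, mitosis and biosynthesis are switched on in that period, and genes of the naive state such as Il7r and S1pr1 are switched off. Signals through the T cell receptor also induce transcription factors of the NR4A, EGR and IRF families and the inhibitory receptors PD-1 (Pdcd1), LAG-3 (Lag3) and CTLA-4 (Ctla4). Aged erythrocytes are cleared in the spleen and liver, and antigens carried on them have been studied as a route to T cell tolerance, in which T cells first divide and are then deleted or made unresponsive.

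Values were deposited as log2 RPKM, which divides a gene's reads by its length and by the size of the library, and the depth behind each value is unknown. A log2 fold change of 1 is a doubling of RPKM, and each is given as TER119-SIINFEKL over SIINFEKL with its standard error (SE) from limma. A gene was called when its p-value, adjusted by the Benjamini-Hochberg method over 9793 genes, was under 0.05. The labels do not say whether libraries of a group came from separate mice, so p-values measure the spread between libraries. The fit pooled that spread over all 5 groups, so an SE understates it for a group that varies more than the others. The 3 TER119-SIINFEKL libraries lay together on the first principal component (63.6% of the variance, positions 25.0 to 30.8), with Naive at -61.3 to -55.9. The SIINFEKL libraries lay apart from each other, replicate 1 at -11.9 and replicate 2 at -48.3. On the second component (14.1%) they were at -46.3 and -20.2, outside TER119-SIINFEKL (-8.0 to 5.0) and Naive (11.7 to 15.7). Values of the SIINFEKL libraries differed by more than 2-fold in 661 genes (6.75% of those tested), against 223 genes in the pair of TER119-SIINFEKL libraries that differed most. The SD within a group, as a typical value over genes on the log2 scale, was 0.255 in TER119-SIINFEKL and 0.416 in SIINFEKL. For that reason the fold change against each SIINFEKL library is given beside the mean where they part. Cd8a stood at 247 to 303 RPKM in TER119-SIINFEKL and 318 to 358 RPKM in SIINFEKL, and Cd8b1 was called lower, at 482 to 570 RPKM in TER119-SIINFEKL and 803 and 823 RPKM in SIINFEKL (log2 fold change -0.62, adjusted p = 0.0015). Zap70, a kinase of the T cell receptor, was called higher (0.37, adjusted p = 0.027). Cd4 stayed between 0.18 and 1.31 RPKM in these 5 libraries, but Zbtb7b, the other CD4 T cell marker, stood at 9.93 RPKM in SIINFEKL replicate 1 and at 0.84 to 1.11 RPKM in the other 4. Of the markers set for other cells, the B cell list had 2 of 7 members with values (summed level 23.8 to 27.5 RPKM in TER119-SIINFEKL and 12.8 to 21.5 RPKM in SIINFEKL). The NK cell list had 3 of 4 (5.97 to 22.1 RPKM and 5.42 to 6.81 RPKM), the dendritic cell and MHC class II list 5 of 8 (12.1 to 36.6 RPKM and 12.2 to 14.1 RPKM), and the macrophage list 3 of 8 (16.8 to 27.0 RPKM and 17.5 to 19.2 RPKM). The erythroid list had 2 of 8 (1.55 to 20.3 RPKM and 1.53 to 2.27 RPKM), and no member of the regulatory T cell, neutrophil and platelet lists had values. TER119-SIINFEKL replicate 1 gave the top of its group's range in the B cell, NK, MHC class II, macrophage and erythroid lists. It had 14.7 RPKM of Klrb1c (called higher, log2 fold change 1.21, adjusted p = 0.019) and 19.2 of Cd74. It also had 19.6 RPKM of Itgam, 16.6 of Cd79b and 9.08 of Hba-a1, whose reads may be shared with a near-identical copy. Of 6 markers of stroma and endothelium only Pecam1 had values, and it was called lower, at 33.6 to 42.8 RPKM in TER119-SIINFEKL and 48.2 to 65.7 RPKM in SIINFEKL (adjusted p = 0.0098). Of 4 plasma cell markers only Igj had values, and it stood at 0.564 to 4.22 RPKM in TER119-SIINFEKL and 0.425 and 9.50 RPKM in SIINFEKL and was not called. The part of these markers in the results was not tested beyond leaving out each library.

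Of the 9793 genes tested, 3664 (37.4%) were called, 1996 higher and 1668 lower after TER119-SIINFEKL. Of these, 941 (9.61% of genes tested) changed at least 2-fold, 673 upward and 268 downward. A fit that gave each group its own weight, and so counted the SIINFEKL libraries for less, called 2185 genes (22.3%), 1324 higher and 861 lower, all 2185 among the 3664. A fit of the 5 libraries alone called 2131. Group values did not overlap in 3622 of the 3664 called genes, and they did not overlap in 5528 (56.4%) of all genes tested. The median log2 fold change over all genes was -0.00. Lists of the cell cycle and of most biosynthesis held mainly rises, the lists of naive and memory genes and of interferon-response genes held falls and no rise, the lists of inhibitory receptors, cytokines and trafficking receptors held both, and the lists of cytotoxic, costimulation and effector transcription factor genes held a few rises and no fall.

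**Figure D1:**
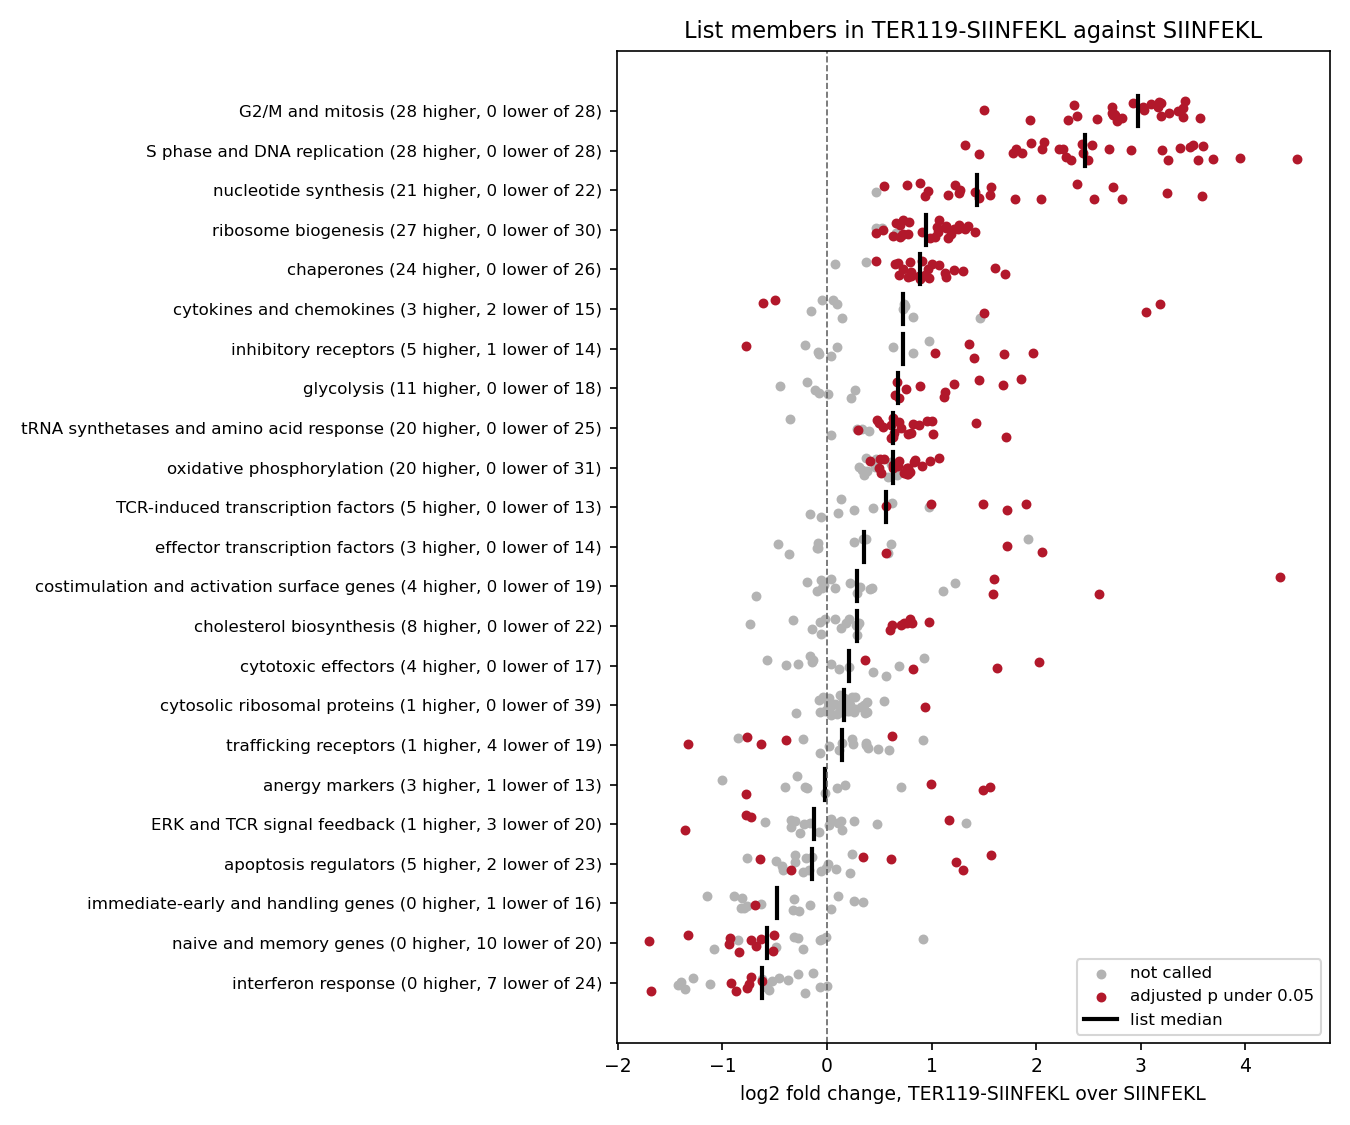
Each point is 1 tested member of a gene list, placed by its log2 fold change of TER119-SIINFEKL over SIINFEKL (horizontal axis), with lists in rows ordered by their median (black bar); red points passed the test at adjusted p under 0.05 and grey points did not. All 28 tested members of the G2/M list and all 28 of the S phase list lie above 1, while the interferon list runs between -1.68 and -0.00.

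Genes of DNA replication were strongly raised throughout. The tested list held 28 genes that license origins, unwind and copy DNA, and 28 of 28 rose, against 20.4% of all genes tested. Their median log2 fold change was 2.47 and the range was 1.32 to 4.50. The median log2 RPKM of the list was 4.34, 4.87 and 4.86 in the TER119-SIINFEKL libraries, against 3.04 and 1.94 in SIINFEKL replicates 1 and 2 and 2.52 to 2.62 in Naive. The median difference was 2.10 against SIINFEKL replicate 1 and 3.00 against replicate 2. In bulk RNA a larger share of cycling cells and more transcript per cell cannot be told apart. Mcm5, a subunit of the replicative helicase, had 6.60, 6.85 and 6.95 log2 RPKM after TER119-SIINFEKL, against 4.23 and 3.57 after SIINFEKL and 4.13 to 4.34 in Naive. The 3 TER119-SIINFEKL libraries were all above both SIINFEKL libraries, which stood within or below the Naive range. Its log2 fold change was 2.90 ± 0.17 (SE, 3 against 2 libraries, adjusted p = 6e-07). Mcm7, another helicase subunit, rose by 2.44 ± 0.15 (adjusted p = 6e-07), Mcm3 by 2.21 ± 0.16, Fen1, which trims Okazaki fragments, by 2.26 ± 0.16, and Pcna, the sliding clamp of the polymerases, by 1.95 ± 0.16. Against SIINFEKL replicate 1, the higher of its pair for both genes, Mcm7 differed by 2.31 and Fen1 by 2.13.

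The genes named as largest rises of the table were also replication and repair genes. Orc1, the largest subunit of the origin recognition complex, had 2.38, 2.30 and 2.55 log2 RPKM after TER119-SIINFEKL, against -1.18 and -2.99 after SIINFEKL and -2.04 to -1.58 in Naive. The libraries of the 2 peptide groups did not overlap, and its log2 fold change was 4.50 ± 0.40 (adjusted p = 5.8e-06). That value falls to 2.31 when 1 is added to each RPKM, since Orc1 was under 1 RPKM in both SIINFEKL libraries. Fignl1, an ATPase of DNA repair, rose by 4.01 ± 0.61, Mcm10, which helps to start replication, by 3.95 ± 0.54, and Rad54l, a recombination ATPase, by 3.75 ± 0.53. The gene listed as 2810417H13Rik rose by 3.72 ± 0.53. For these 4 genes the rise rests in size on SIINFEKL replicate 2. Without it the log2 fold changes lay between 2.28 for 2810417H13Rik and 2.53 for Mcm10, all still called. Chek1, the checkpoint kinase of stalled replication, rose by 3.95 ± 0.46 and Gins1, of the GINS helicase complex, by 3.69 ± 0.40. In Orc1, Rad54l, Mcm7 and Fen1 exons overlap those of a gene on the opposite strand, and the counting is not stated to use strand.

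Start-site sequence is shown for a pair of called members of the S phase list and a pair of the G2/M list, those with the smallest adjusted p whose window held the motif, because E2F factors and the CHR element are textbook regulators of S phase and of mitotic genes. The windows run from 250 bases before to 50 bases after the start in RefSeq (GRCm38.p6) and read 5′ to 3′ on the strand of the gene. Capitals mark the motif, searched on both strands as TTTCCCGC or TTTGGCGC for E2F and as TTTGAA for CHR.
Mcm5: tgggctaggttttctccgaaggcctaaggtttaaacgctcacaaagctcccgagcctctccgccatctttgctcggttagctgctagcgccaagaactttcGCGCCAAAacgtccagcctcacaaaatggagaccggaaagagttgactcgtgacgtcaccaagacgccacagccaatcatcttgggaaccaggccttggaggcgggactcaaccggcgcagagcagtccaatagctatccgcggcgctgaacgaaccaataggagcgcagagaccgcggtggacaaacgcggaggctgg
Mcm7: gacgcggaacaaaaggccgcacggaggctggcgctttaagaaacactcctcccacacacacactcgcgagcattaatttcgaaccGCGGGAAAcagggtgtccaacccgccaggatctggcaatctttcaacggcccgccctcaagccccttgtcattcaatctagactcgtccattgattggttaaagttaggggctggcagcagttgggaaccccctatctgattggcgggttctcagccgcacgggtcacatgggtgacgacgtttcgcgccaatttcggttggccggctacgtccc
Cdc20: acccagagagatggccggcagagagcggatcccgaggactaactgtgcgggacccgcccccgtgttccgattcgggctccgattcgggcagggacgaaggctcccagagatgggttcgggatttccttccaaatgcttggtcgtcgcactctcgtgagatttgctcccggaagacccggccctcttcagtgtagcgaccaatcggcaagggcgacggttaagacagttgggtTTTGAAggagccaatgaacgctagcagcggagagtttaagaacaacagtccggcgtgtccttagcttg
Top2a: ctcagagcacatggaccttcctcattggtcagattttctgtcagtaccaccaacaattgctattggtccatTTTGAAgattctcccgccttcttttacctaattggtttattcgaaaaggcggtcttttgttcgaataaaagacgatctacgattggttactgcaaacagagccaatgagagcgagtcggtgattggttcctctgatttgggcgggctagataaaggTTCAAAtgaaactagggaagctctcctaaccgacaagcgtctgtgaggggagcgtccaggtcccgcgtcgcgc
Mcm5 is at chr8:75109259-75109558 on the plus strand, and its match begins 149 bases before the start. Mcm7 is at chr5:138171834-138172133 on the minus strand, with the match 165 bases before the start of the first of its 2 listed windows. Cdc20 is at chr4:118437294-118437593 on the minus strand, with the match 18 bases before the start. Top2a is at chr11:99024140-99024439 on the minus strand, with matches 179 and 23 bases before the start. An E2F match was found in 8 of the 23 called S phase members with a window (34.8%), against 3.59% of the genes tested and 1.63% of all 27025 genes with a window. A CHR match was found in 18 of the 25 called G2/M members with a window (72.0%), against 12.2% of the genes tested and 18.1% of all genes. Among called genes, E2F matches stood in 6.52% of the higher and 1.70% of the lower ones, and CHR matches in 16.4% and 9.92%. A match describes these letters and shows no binding.

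Genes of G2 and mitosis were raised too, with a larger gap between the SIINFEKL libraries. Of 30 listed genes 28 were tested and 28 rose, against 20.4% of all genes called higher. Their median log2 fold change was 2.97 and the range was 1.50 to 3.57. The median log2 RPKM of the list was 4.42, 4.97 and 4.88 after TER119-SIINFEKL, against 2.87 and 0.60 after SIINFEKL and -0.21 to 0.44 in Naive. The list median was 1.78 above SIINFEKL replicate 1 and 4.20 above replicate 2, so replicate 2 stood near Naive and replicate 1 between Naive and TER119-SIINFEKL. Ccnb1, the cyclin that drives entry into mitosis, had 5.09, 5.58 and 5.43 log2 RPKM after TER119-SIINFEKL, against 3.57 and 1.68 after SIINFEKL and 0.17 to 0.40 in Naive. The peptide groups did not overlap, and the log2 fold change was 2.74 ± 0.36 (adjusted p = 0.00011), or 1.80 without SIINFEKL replicate 2. Cdc20, the activator of the anaphase-promoting complex, rose by 2.75 ± 0.35, Top2a, the topoisomerase that untangles replicated DNA, by 2.77 ± 0.39, and Kif20a, a kinesin of cell division, by 3.17 ± 0.41. Mki67, the proliferation marker Ki-67, had 4.87, 6.23 and 5.99 log2 RPKM after TER119-SIINFEKL, against 4.40 and 1.53 after SIINFEKL. TER119-SIINFEKL replicate 1 and SIINFEKL replicate 1 were close to each other, and the log2 fold change of 2.73 ± 0.62 (adjusted p = 0.0039) became 1.29 without SIINFEKL replicate 2 (adjusted p = 0.05, no longer called). Without SIINFEKL replicate 2, 26 of the 28 tested G2/M genes were still called, and 28 of 28 S phase genes.

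**Figure D2:**
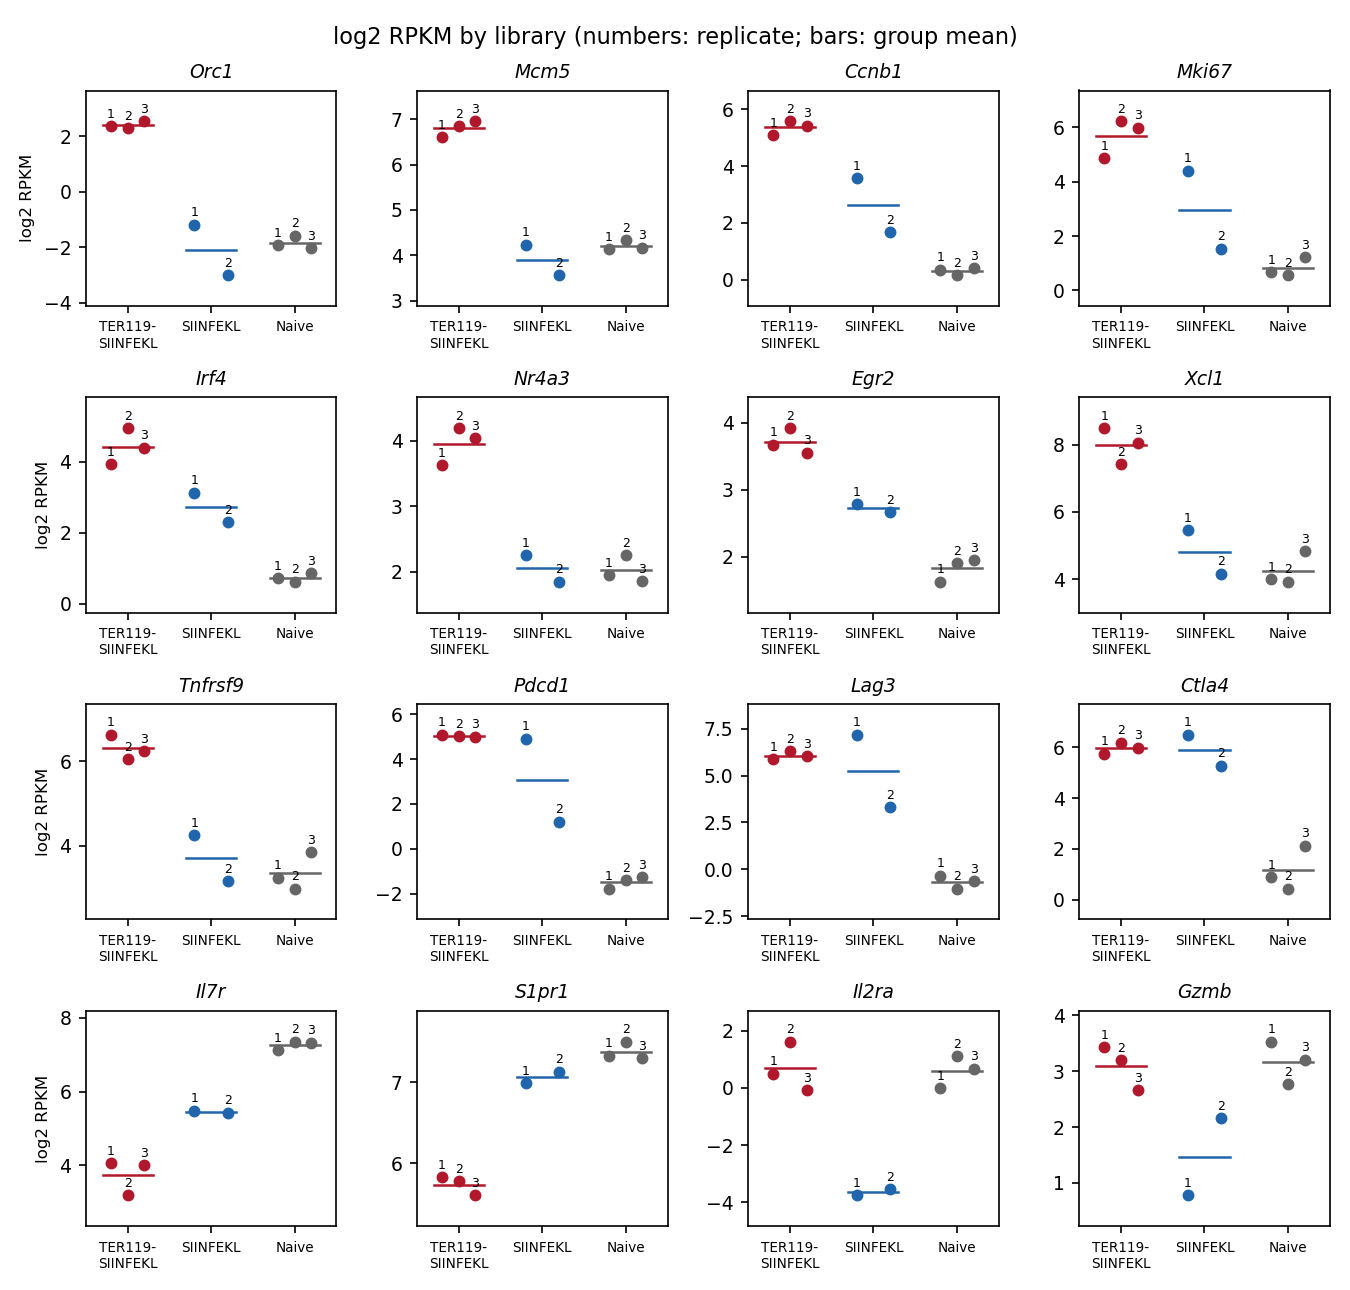
Points are the log2 RPKM of 16 genes (vertical axes, scaled per gene) in each TER119-SIINFEKL, SIINFEKL and Naive library, with replicate numbers above the points and bars at the group means. For Mcm5, Nr4a3, Xcl1 and Il7r both SIINFEKL libraries stand apart from TER119-SIINFEKL, whereas for Pdcd1 and Lag3 SIINFEKL replicate 1 stands near or above TER119-SIINFEKL and replicate 2 well below.

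Biosynthesis and energy metabolism rose with the cell cycle genes, by smaller amounts and in closer accord between the SIINFEKL libraries. Of 22 tested enzymes of nucleotide synthesis 21 rose and none fell (median 1.43), against 20.4% of all genes called higher. The same share applies to the other lists of biosynthesis and metabolism below. Rrm1, the large subunit of ribonucleotide reductase, had 6.06, 6.47 and 6.37 log2 RPKM after TER119-SIINFEKL, against 3.88 and 3.26 after SIINFEKL. All TER119-SIINFEKL libraries were above both SIINFEKL libraries, and the log2 fold change was 2.73 ± 0.18 (adjusted p = 7.9e-07). Shmt1, a serine hydroxymethyltransferase of folate metabolism, rose by 2.39 ± 0.16, and Umps, the enzyme that completes UMP synthesis, by 1.56 ± 0.12. Of 30 tested genes of ribosome biogenesis 27 rose and none fell (median 0.94). The median log2 RPKM of the list was 5.16, 5.25 and 5.32 after TER119-SIINFEKL. It was 3.80 and 4.41 after SIINFEKL and 4.77 to 4.90 in Naive, so both SIINFEKL libraries stood below Naive. Nop58 and Fbl, both of box C/D ribonucleoproteins that guide the methylation of ribosomal RNA, rose by 1.35 ± 0.14 and 1.21 ± 0.14, and Npm1, nucleophosmin, by 1.07 ± 0.14. This list was farther from SIINFEKL replicate 1 (median difference 1.18) than from replicate 2 (0.61), the reverse of the cell cycle lists. Cytosolic ribosomal protein genes stood apart from it (median 0.17), below the 20.4% and 17.0% of all genes called higher and lower. None of 39 was lower and 1 was higher (2.56%). That member, Rps2, has many near-identical copies in the genome and rose by 0.93 ± 0.17.

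Of 26 tested chaperone genes 24 rose and none fell (median 0.89), against 20.4% of all genes called higher. The median log2 RPKM of the list was 7.36 to 7.53 after TER119-SIINFEKL. It was 6.15 and 6.69 after SIINFEKL and 6.99 to 7.17 in Naive, so both SIINFEKL libraries stood below Naive. Hspd1, the mitochondrial chaperonin, had 7.42, 7.47 and 7.62 log2 RPKM after TER119-SIINFEKL, against 5.48 and 6.13 after SIINFEKL and 6.51 to 6.89 in Naive. Both SIINFEKL libraries were the lowest of these 8, and the log2 fold change was 1.70 ± 0.19 (adjusted p = 3.1e-05). Hsp90aa1 and Hsp90ab1, the cytosolic HSP90 genes, rose by 1.60 ± 0.20 and 1.30 ± 0.13, and Pdia6, a disulfide isomerase of the endoplasmic reticulum, by 1.22 ± 0.13. Of 25 tested tRNA synthetase and amino acid genes 20 rose and none fell (median 0.64), a count that was 12 without SIINFEKL replicate 1. Psat1 and Phgdh, both of serine synthesis, rose by 1.71 ± 0.20 and 1.43 ± 0.15, and Kars, the lysyl-tRNA synthetase, by 1.00 ± 0.10. Of 18 tested glycolytic genes 11 rose and none fell (median 0.68). Tpi1, triosephosphate isomerase, rose by 1.85 ± 0.14 (adjusted p = 2e-06), Pgam1, phosphoglycerate mutase, by 1.11 ± 0.10, Ldha, lactate dehydrogenase, by 1.21 ± 0.13, and Hk2, hexokinase 2, by 1.68 ± 0.28. The glucose transporters Slc2a1 and Slc2a3 gave -0.19 ± 0.14 (adjusted p = 0.33) and -0.11 ± 0.13 (adjusted p = 0.54). Of 31 tested subunits of oxidative phosphorylation 20 rose and none fell (median 0.63), 12 with weights per group. Atp5b, a catalytic subunit of ATP synthase, rose by 0.99 ± 0.12, Cycs, cytochrome c, by 1.07 ± 0.16, and Ndufv1, of complex I, by 0.74 ± 0.11.

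Transcription factors induced by the T cell receptor were partly raised. Of 13 tested 5 rose and none fell, 38.5% against the 37.4% called among all genes, with a median log2 fold change of 0.56. Nr4a3, an orphan nuclear receptor, had 3.63, 4.19 and 4.04 log2 RPKM after TER119-SIINFEKL, against 2.26 and 1.85 after SIINFEKL and 1.86 to 2.25 in Naive. Both SIINFEKL libraries lay at the Naive level, and the log2 fold change was 1.90 ± 0.21 (adjusted p = 3.1e-05). Irf4, a factor that scales with receptor signal strength, had 3.94, 4.96 and 4.40 log2 RPKM after TER119-SIINFEKL, against 3.13 and 2.30 after SIINFEKL and 0.61 to 0.86 in Naive. SIINFEKL stood between Naive and TER119-SIINFEKL, and the log2 fold change was 1.72 ± 0.29 (adjusted p = 0.00058). Egr2, a zinc finger factor linked to T cell unresponsiveness, had 3.67, 3.92 and 3.55 log2 RPKM after TER119-SIINFEKL, against 2.79 and 2.67 after SIINFEKL and 1.63 to 1.95 in Naive. The 3 groups did not overlap, and the log2 fold change was 0.99 ± 0.16 (adjusted p = 0.0004). Its relative Egr3 rose by 1.49 ± 0.35, but by 0.68 without SIINFEKL replicate 2 (adjusted p = 0.072). Batf, an AP-1 family factor, rose by 0.56 ± 0.18, a call lost without TER119-SIINFEKL replicate 1 or either SIINFEKL library (0.48 to 0.65). Nr4a1 gave 0.44 ± 0.46 (adjusted p = 0.48), Tox 0.13 ± 0.17 (adjusted p = 0.58) and Nfatc1 -0.05 ± 0.24 (adjusted p = 0.88). Without SIINFEKL replicate 2, 3 of the 13 were called.

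Among secreted factors, chemokines showed the largest differences. Of 15 tested cytokine and chemokine genes 3 rose and 2 fell (33.3% called against 37.4% of all genes, median 0.72). Xcl1, the chemokine that attracts XCR1+ dendritic cells, had 8.50, 7.43 and 8.07 log2 RPKM after TER119-SIINFEKL, against 5.46 and 4.16 after SIINFEKL and 3.92 to 4.83 in Naive. Every TER119-SIINFEKL library was far above the others, and the log2 fold change was 3.19 ± 0.37 (adjusted p = 4.6e-05). Ccl4, an inflammatory chemokine, rose by 3.05 ± 0.42 and Tnfsf14 (LIGHT) by 1.50 ± 0.21. Ltb, lymphotoxin beta, fell by 0.61 ± 0.19 and Tnfsf8 (CD30 ligand) fell by 0.50 ± 0.17. The Ltb call was lost without TER119-SIINFEKL replicate 2 or 3 or SIINFEKL replicate 2, where the fold change was -0.56 to -0.36. The Tnfsf8 call was lost without TER119-SIINFEKL replicate 2 or 3 or SIINFEKL replicate 1 (-0.46 to -0.28). The effector cytokine Ifng had 2.68, 3.39 and 4.63 log2 RPKM after TER119-SIINFEKL, against 3.43 and 2.20 after SIINFEKL. These overlapped, and the log2 fold change was 0.75 ± 0.87 (adjusted p = 0.53). Il2 gave 0.14 ± 0.25 (adjusted p = 0.69). Over the list, 5 genes were higher without SIINFEKL replicate 1 (1 lower), and none was lower without TER119-SIINFEKL replicate 2 or 3.

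Of 19 tested costimulation and activation genes 4 rose and none fell (21.1%, near the 20.4% of all genes called higher, median 0.29). The count was 7 higher and 1 lower without SIINFEKL replicate 1, and 7 higher and none lower without replicate 2. Tnfrsf9 (4-1BB), a costimulatory receptor induced by antigen, had 6.63, 6.06 and 6.23 log2 RPKM after TER119-SIINFEKL, against 4.25 and 3.16 after SIINFEKL and 2.98 to 3.85 in Naive. The peptide groups were well apart, and the log2 fold change was 2.60 ± 0.31 (adjusted p = 4.9e-05). Tfrc, the transferrin receptor, rose by 1.59 ± 0.21 and Slc7a5, an amino acid transporter subunit, by 1.59 ± 0.22. Il2ra, which makes CD25 of the high-affinity IL-2 receptor, was at 1.41, 3.07 and 0.952 RPKM after TER119-SIINFEKL, against 0.0739 and 0.0855 RPKM after SIINFEKL and 0.987 to 2.16 RPKM in Naive. It was thus lowest in both SIINFEKL libraries, and TER119-SIINFEKL overlapped Naive. Its log2 fold change of 4.34 ± 0.45 (adjusted p = 1.9e-05) depends on how values under 1 RPKM are treated, and was 1.31 with 1 added to each RPKM. Cd44, a marker of activated cells, gave 0.43 ± 0.16 (adjusted p = 0.052) and Cd69 -0.10 ± 0.71 (adjusted p = 0.93).

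Inhibitory receptors split by gene, and for several of them by SIINFEKL library. Of 14 tested 5 rose and 1 fell (42.9% called against 37.4% of all genes), with a median difference of 0.10 from SIINFEKL replicate 1 and 0.71 from replicate 2. Without SIINFEKL replicate 2 the counts were 2 and 2, and without any 1 TER119-SIINFEKL library 3 were higher. Pdcd1 had 5.08, 5.01 and 5.00 log2 RPKM after TER119-SIINFEKL, against 4.91 and 1.22 after SIINFEKL and -1.77 to -1.25 in Naive. SIINFEKL replicate 1 was nearly level with TER119-SIINFEKL and replicate 2 was far lower, while Naive was lower still. The log2 fold change was 1.97 ± 0.67 (adjusted p = 0.033), or 0.12 without SIINFEKL replicate 2 (adjusted p = 0.7), and the call was also lost without any 1 TER119-SIINFEKL library (1.94 to 1.98). Lag3 had 5.88, 6.29 and 6.03 log2 RPKM after TER119-SIINFEKL, against 7.18 and 3.31 after SIINFEKL and -1.02 to -0.33 in Naive. The SIINFEKL libraries lay on either side of TER119-SIINFEKL, and the log2 fold change was 0.82 ± 0.70 (adjusted p = 0.38). Against SIINFEKL replicate 1 alone it was -1.11 (adjusted p = 0.0062) and against replicate 2 alone 2.75 (adjusted p = 4.6e-06). Ctla4 had 5.75, 6.18 and 5.99 log2 RPKM after TER119-SIINFEKL, against 6.49 and 5.27 after SIINFEKL and 0.44 to 2.13 in Naive. It too lay within the spread of SIINFEKL (0.09 ± 0.48, adjusted p = 0.9).

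Tigit, by contrast, had 3.28, 3.45 and 3.27 log2 RPKM after TER119-SIINFEKL, against 1.48 and 1.81 after SIINFEKL, and the groups did not overlap. Its log2 fold change was 1.69 ± 0.41 (adjusted p = 0.0057), 1.86 and 1.52 against SIINFEKL replicates 1 and 2. Lair1, a collagen receptor, rose by 1.40 ± 0.28 against SIINFEKL, but its TER119-SIINFEKL values of 2.27 to 2.69 log2 RPKM overlapped the Naive values of 2.04 to 2.76. Cd200 rose by 1.35 ± 0.47 and Cd160 by 1.03 ± 0.28, but without SIINFEKL replicate 2 neither was called (0.08 and 0.49). The Cd200 call was also lost without any 1 TER119-SIINFEKL library (1.32 to 1.41). The gene listed as 4632428N05Rik fell by 0.78 ± 0.13 and stood at 5.64 to 5.92 log2 RPKM after TER119-SIINFEKL, against 6.53 and 6.58 after SIINFEKL and 6.91 to 6.98 in Naive. Of the 16 listed, Havcr2 (TIM-3) is not analysed here, and Cd244 was under the filter on low values.

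**Figure D3:**
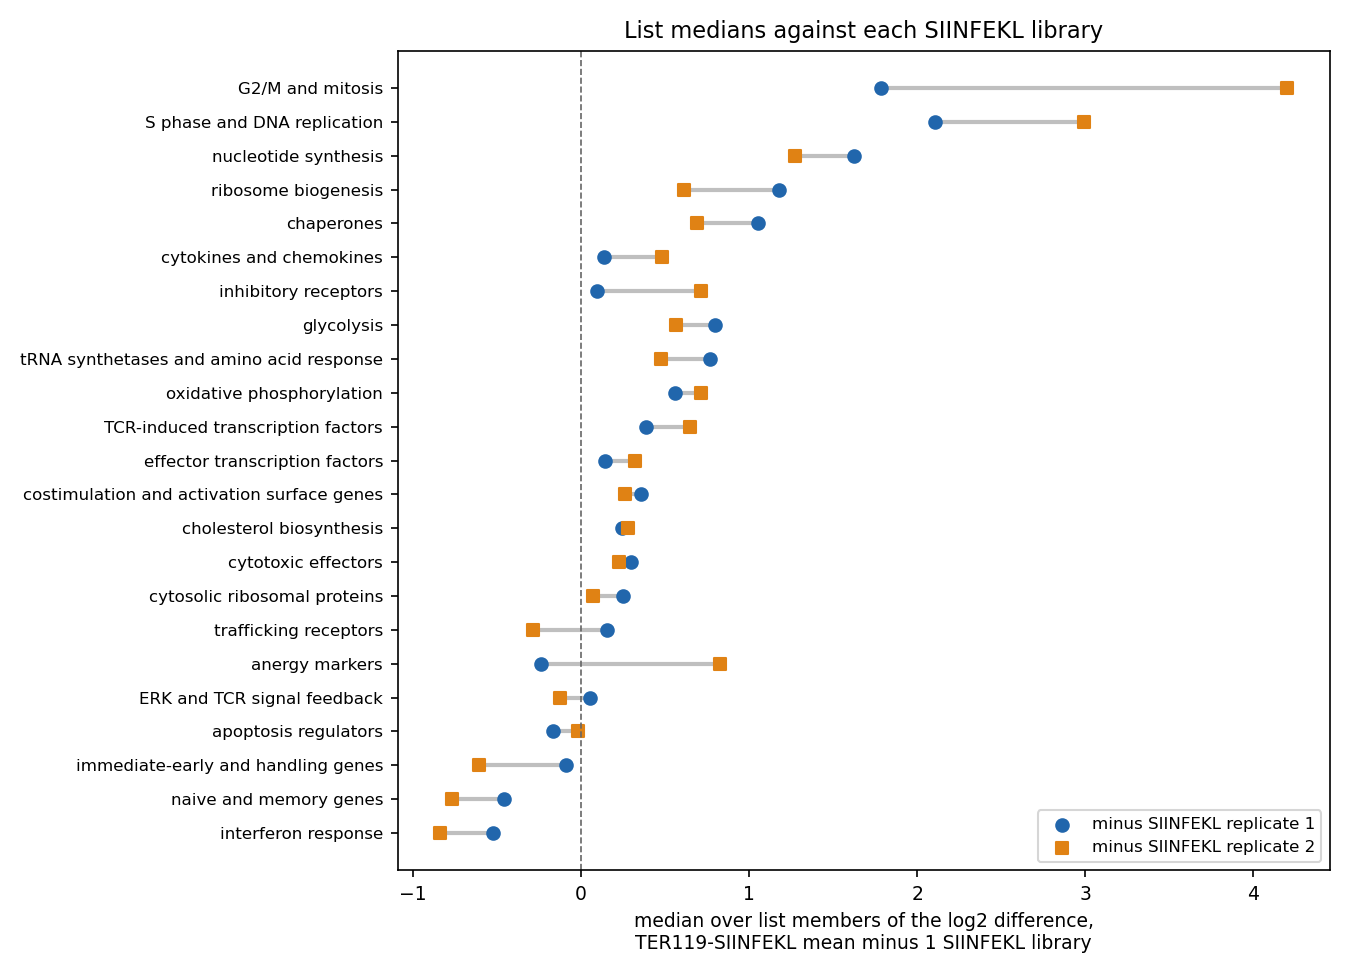
Each row is a gene list, and its points give the median over tested members of the TER119-SIINFEKL mean minus SIINFEKL replicate 1 (blue circles) or replicate 2 (orange squares), on the log2 scale. The cell cycle lists and the biosynthesis lists lie above 0 against both libraries, the naive and interferon lists below 0 against both, and the anergy markers at -0.24 against replicate 1 and 0.82 against replicate 2.

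Genes described as markers of anergic T cells did not move as a group. Of 13 tested 3 rose and 1 fell (30.8% called against 37.4% of all genes, median -0.02), and the count without SIINFEKL replicate 1 was 7 higher and 1 lower and without replicate 2 it was 2 higher and 4 lower. Nrn1, neuritin, had 4.35, 5.16 and 5.12 log2 RPKM after TER119-SIINFEKL, against 6.28 and 3.14 after SIINFEKL and -1.16 to -0.42 in Naive. Nrp1, neuropilin 1, had 2.69, 3.81 and 3.13 log2 RPKM after TER119-SIINFEKL, against 5.31 and 1.15 after SIINFEKL and -0.86 to -0.44 in Naive. In both genes every antigen library was above Naive, and TER119-SIINFEKL lay between the SIINFEKL libraries. Their log2 fold changes were 0.17 ± 0.66 (adjusted p = 0.86) and -0.02 ± 0.78 (adjusted p = 0.99). Folr4, folate receptor 4, gave 0.70 ± 0.28 (adjusted p = 0.067) and Ikzf2, the factor Helios, 0.10 ± 0.31 (adjusted p = 0.82). Without SIINFEKL replicate 1 Folr4 was at 1.32 and Ikzf2 at 0.82, so both values were smaller against replicate 1 than against replicate 2. Ndrg1, described as an anergy factor in T cells, rose by 1.56 ± 0.19, with 4.66, 4.91 and 4.93 log2 RPKM after TER119-SIINFEKL, against 2.95 and 3.60 after SIINFEKL and 4.25 to 4.53 in Naive. Dgka, a diacylglycerol kinase that limits receptor signals, fell by 0.78 ± 0.12, and the ubiquitin ligase Cblb gave -0.29 ± 0.17 (adjusted p = 0.19). The other called members, Egr2 and Egr3, are given above. Of 20 tested feedback genes of ERK and receptor signalling, 1 rose and 3 fell (20.0% called against 37.4% of all genes). With weights per group, without SIINFEKL replicate 1 or without TER119-SIINFEKL replicate 2, none rose and 2 fell. Sla2, an adaptor that lowers receptor signals, fell by 0.72 ± 0.16 and the phosphatase-like Ubash3b fell by 0.78 ± 0.18. Without SIINFEKL replicate 1 Ubash3b was at -0.44 (adjusted p = 0.086). Cish rose by 1.17 ± 0.39 and Socs3 fell by 1.35 ± 0.51, both cytokine-signal suppressors. Each of these 2 calls was lost in at least 4 of the fits that left out 1 library. The Dusp and Spry members were not called, among them Dusp6 at -0.22 ± 0.24 (adjusted p = 0.5), Dusp4 at 1.33, Spry1 at -0.60 and Dusp10 at -0.35. Dusp4 was called without TER119-SIINFEKL replicate 1 (1.73, adjusted p = 0.032). Without SIINFEKL replicate 2, Dusp4 was at 2.01, Spry1 at -1.43 and Dusp10 at -0.52.

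Cytotoxic genes moved little as a list. Of 17 tested 4 rose and none fell (23.5%, near the 20.4% of all genes called higher, median 0.21). Gzmk, granzyme K, had 1.05, 1.95 and 1.53 log2 RPKM after TER119-SIINFEKL, against -0.73 and -0.31 after SIINFEKL and -0.36 to -0.23 in Naive. SIINFEKL stood near Naive, and the log2 fold change was 2.03 ± 0.43 (adjusted p = 0.0025). Gzmb, granzyme B, had 3.43, 3.19 and 2.66 log2 RPKM after TER119-SIINFEKL, against 0.78 and 2.16 after SIINFEKL and 2.77 to 3.53 in Naive. Here SIINFEKL was below Naive and TER119-SIINFEKL overlapped it. The log2 fold change of 1.63 ± 0.45 (adjusted p = 0.012) became 0.94 without SIINFEKL replicate 1 (adjusted p = 0.16). Serpinb6b, a protease inhibitor, rose by 0.82 ± 0.20, or 0.43 without SIINFEKL replicate 2 (adjusted p = 0.1). Cst7, cystatin F, rose by 0.36 ± 0.13, a call lost without either SIINFEKL library (0.33 and 0.39), without TER119-SIINFEKL replicate 1 or 3 and in 5 of the fits without a library of another group. The list had 2 higher and 1 lower without SIINFEKL replicate 1, and 2 lower without TER119-SIINFEKL replicate 1. Prf1, perforin, gave -0.28 ± 0.22 (adjusted p = 0.34). Among 14 tested effector transcription factors, Irf8, Irf4 and Batf rose and none fell (21.4% against 20.4% of all genes called higher). Irf8, an interferon regulatory factor, rose by 2.06 ± 0.28 (adjusted p = 0.00012), with 3.85, 4.47 and 4.32 log2 RPKM after TER119-SIINFEKL, against 1.85 and 2.46 after SIINFEKL. Tbx21 (T-bet) gave 0.34 ± 0.25 (adjusted p = 0.29), and Eomes (eomesodermin) 0.62 ± 0.40 (adjusted p = 0.25), with 1.64 against SIINFEKL replicate 1 and -0.41 against replicate 2.

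Many genes of the naive and memory state were lower. Of 20 tested 10 fell and none rose, against 17.0% of all genes called lower, with a median log2 fold change of -0.58. A single member had a positive log2 fold change, 0.92, and was not called. The list median was -0.46 against SIINFEKL replicate 1 and -0.77 against replicate 2, and 6 were called with weights per group. Il7r, the IL-7 receptor alpha chain, had 4.07, 3.19 and 4.00 log2 RPKM after TER119-SIINFEKL, against 5.48 and 5.43 after SIINFEKL and 7.12 to 7.36 in Naive. The 3 groups formed steps with no overlap, and the log2 fold change was -1.70 ± 0.23 (adjusted p = 0.00014). S1pr1, the receptor for exit from lymphoid organs, had 5.82, 5.78 and 5.60 log2 RPKM after TER119-SIINFEKL, against 6.99 and 7.13 after SIINFEKL and 7.30 to 7.50 in Naive. SIINFEKL stood close below Naive, and the log2 fold change was -1.32 ± 0.12 (adjusted p = 7.9e-06). Klf2 and Klf3, Krüppel-like factors of quiescent T cells, fell by 0.93 ± 0.16 and 0.94 ± 0.13. Ccr7, the lymph node homing receptor, fell by 0.64 ± 0.14 and Satb1, a chromatin organizer, fell by 0.84 ± 0.16 (-0.52 without SIINFEKL replicate 2). Foxo1, Lef1, Bach2 and Tcf7, transcription factors of this state, had log2 fold changes of -0.72 to -0.50. All 4 calls were lost without SIINFEKL replicate 2, where the values were -0.48 to -0.34. That of Tcf7 was also lost without TER119-SIINFEKL replicate 1 or 3, of Lef1 without replicate 3 and of Bach2 without replicate 1 (-0.55 to -0.48). Igfbp4, abundant in Naive at 6.64 to 6.81 log2 RPKM, stood at 2.32, 0.63 and 2.54 after TER119-SIINFEKL, against 2.72 and 3.09 after SIINFEKL, and narrowly missed the threshold (-1.08 ± 0.41, adjusted p = 0.052). Among 19 tested trafficking genes 4 fell and 1 rose (26.3% called against 37.4% of all genes), and without SIINFEKL replicate 2 the counts were 3 lower and 3 higher. With weights per group or without TER119-SIINFEKL replicate 3, 3 fell and none rose. Beside S1pr1 and Ccr7, Selplg, the selectin ligand PSGL-1, fell by 0.76 ± 0.13 and Itgb7, an integrin chain, fell by 0.40 ± 0.13. The Itgb7 call was lost without TER119-SIINFEKL replicate 3 or either SIINFEKL library (-0.45 to -0.34). Itgb1 rose by 0.62 ± 0.23 at an adjusted p of 0.049, and was at 0.08 without SIINFEKL replicate 2 (adjusted p = 0.77). Its call was lost in most fits that left out 1 library.

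A minority of interferon-response genes passed the test, in numbers that depended on single libraries. All 24 tested had negative log2 fold changes (median -0.62). Of these 7 were called lower and none higher (29.2%), against 17.0% of all genes called lower and 37.4% called in either direction. The count was 16 without TER119-SIINFEKL replicate 1, 12 without SIINFEKL replicate 1, and 3 without TER119-SIINFEKL replicate 3 or SIINFEKL replicate 2. The list median was 3.90, 3.23 and 2.91 log2 RPKM in TER119-SIINFEKL replicates 1, 2 and 3, against 3.95 and 4.21 in SIINFEKL and 3.67 to 3.88 in Naive. TER119-SIINFEKL replicate 1 thus lay near SIINFEKL and Naive. It also had the most MHC class II and NK cell transcript of its group, and a link between these was not tested. Stat2, which carries the type I interferon signal, had 2.94, 2.89 and 2.89 log2 RPKM after TER119-SIINFEKL, against 3.82 and 3.74 after SIINFEKL and 2.80 to 3.00 in Naive. TER119-SIINFEKL was at the Naive level and SIINFEKL above it, and the log2 fold change was -0.87 ± 0.15 (adjusted p = 0.00076). Irf9, the partner of STAT2, fell by 0.77 ± 0.15 and Ddx58, which senses viral RNA, fell by 0.73 ± 0.16. Irf9 shares exons with a gene on the same strand. The classical targets Ifit1 (-1.28 ± 0.49, adjusted p = 0.053) and Ifit3 (-1.36 ± 0.51, adjusted p = 0.051) varied widely among the TER119-SIINFEKL libraries and missed the threshold. The other called members, Mx1, Rtp4, Irf7 and Zbp1, had values of -1.68 to -0.62, and each lost its call without at least 1 library.

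The largest falls of the table lay mostly outside the lists. Gabbr1, a subunit of the GABA-B receptor, had 1.53, 2.27 and 2.35 log2 RPKM after TER119-SIINFEKL, against 4.46 and 3.92 after SIINFEKL and 2.98 to 3.44 in Naive. SIINFEKL was above Naive and TER119-SIINFEKL below it, and the log2 fold change was -2.14 ± 0.35 (adjusted p = 0.00045). Rapgef4, an exchange factor activated by cyclic AMP, had 1.35, 1.50 and 1.51 log2 RPKM after TER119-SIINFEKL, against 3.40 and 3.26 after SIINFEKL and 3.14 to 3.36 in Naive. SIINFEKL matched the Naive range here, and the log2 fold change was -1.87 ± 0.15 (adjusted p = 3.3e-06). Acrbp gave -1.84 ± 0.39, Ankrd23 -1.83 ± 0.42, Phyhd1 -1.76 ± 0.52, Sap25 -1.75 ± 0.44 and 2010016I18Rik -1.73 ± 0.59. Exons of Acrbp, Ankrd23, Phyhd1 and Sap25 overlap those of a gene on the same strand, so their values are uncertain. Without SIINFEKL replicate 1 the calls of Ankrd23 (-1.23), Phyhd1 (-0.70), Sap25 (-1.40) and 2010016I18Rik (-0.85) were lost, that of 2010016I18Rik also without TER119-SIINFEKL replicate 1 or 3 (-1.61 and -1.75). Cd22, known as an inhibitory receptor of B cells, rose by 1.61 ± 0.16 (adjusted p = 1.1e-05). It was at 10.9, 10.9 and 12.4 RPKM after TER119-SIINFEKL, against 3.87 and 3.57 RPKM after SIINFEKL, and below both in Naive (-1.66 to -1.20 log2 RPKM). Cd79b, another B cell gene, was at 11.4 to 16.6 RPKM after TER119-SIINFEKL and 17.6 and 9.21 RPKM after SIINFEKL and was not called (0.13 ± 0.28, adjusted p = 0.74), and the other 5 B cell markers are not analysed here.

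Whether erythrocyte binding acted alike on peptide and protein was asked by setting the fold change of TER119-SIINFEKL over SIINFEKL against that of ERY1-OVA over OVA, which rests on 6 other libraries. The protein comparison called 104 genes (1.06%), 40 higher and 64 lower after ERY1-OVA. The SD of log2 fold changes over genes was 0.696 for the peptide and 0.287 for the protein. The difference between the 2 effects was called for 3694 genes (37.7%), 2018 with the peptide effect more positive and 1676 with it more negative. Of the 3664 genes called for the peptide, 3169 also differed from the protein. Across the 9793 genes the 2 fold changes had a Pearson correlation of -0.449, as a description over genes, which are not independent. Of the genes called in both, 78 had opposite signs and 2 the same. In this contrast the constructs differ in carrier as well as antigen, so the ERY1 peptide and the TER119 fragment, and protein and peptide, cannot be told apart.

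**Figure D4:**
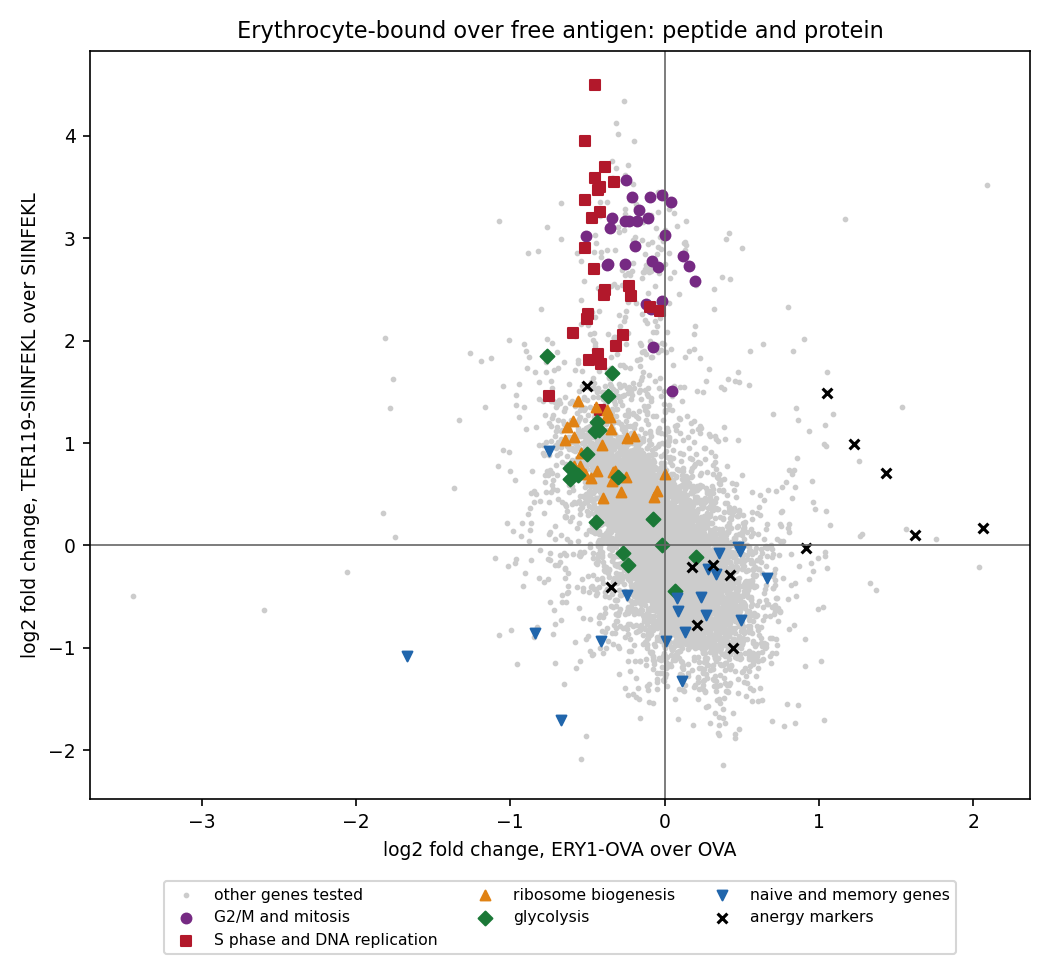
Each point is a gene, placed by its log2 fold change of ERY1-OVA over OVA (horizontal axis) and of TER119-SIINFEKL over SIINFEKL (vertical axis), with 6 gene lists in colour. The S phase and G2/M genes lie above 1 on the vertical axis and within 0.75 of 0 on the horizontal one, mostly to the left of it, and the anergy markers Nrn1, Ikzf2, Folr4, Egr2 and Egr3 lie to the right of 1 on the horizontal axis.

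The cell cycle lists carried the largest differences. The effect of binding was more positive for the peptide in 28 of 28 S phase genes, 28 of 28 G2/M genes and 22 of 22 nucleotide genes, with 20.6% of all genes called in that direction. The median fold change of ERY1-OVA over OVA was -0.42 for the S phase list and -0.11 for the G2/M list. Mcm5 had 6.71, 6.50 and 6.71 log2 RPKM after ERY1-OVA, against 7.06, 7.15 and 7.24 after OVA, both near the 6.60 to 6.95 of TER119-SIINFEKL. SIINFEKL alone, at 4.23 and 3.57, was low among the 4 antigen groups, and the difference of the effects was 3.41 ± 0.23 (adjusted p = 1.8e-06). Gzmk had 0.96, 1.76 and 2.25 log2 RPKM after ERY1-OVA, against 4.39, 2.89 and 3.13 after OVA. Its binding effects had opposite signs (2.03 for the peptide and -1.81 for the protein, adjusted p = 0.041), and they differed by 3.84 (adjusted p = 0.00028). The Gzmb effects, 1.63 for the peptide and -1.76 for the protein (adjusted p = 0.051), differed by 3.39 (adjusted p = 0.00086). Ikzf2 had 3.60, 3.48 and 3.60 log2 RPKM after ERY1-OVA, against 1.87, 1.87 and 2.09 after OVA. For Ikzf2 the protein effect was 1.62 (adjusted p = 0.03), the peptide effect 0.10, and the difference -1.52 (adjusted p = 0.012). That peptide effect averages SIINFEKL libraries that part, and was 0.82 without SIINFEKL replicate 1. Of the others, 13 of 20 naive and memory genes and 7 of 24 interferon genes had a more negative effect for the peptide, against 17.1% of all genes.

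Egr2 and Crtam were the 2 genes called in the same direction for both antigens. Egr2 had 2.79, 2.88 and 2.55 log2 RPKM after ERY1-OVA, against 1.55, 1.58 and 1.39 after OVA. Its fold changes were 0.99 ± 0.16 for the peptide and 1.23 for the protein (adjusted p = 0.0064), and the difference was -0.24 ± 0.21 (adjusted p = 0.4). Crtam, an adhesion receptor of activated CD8+ T cells that was named after its values were seen, had 6.22, 6.13 and 6.14 log2 RPKM after TER119-SIINFEKL, against 5.29 and 4.99 after SIINFEKL. In the protein pair Crtam had 5.57, 5.62 and 5.68 log2 RPKM after ERY1-OVA, against 5.11, 5.11 and 5.22 after OVA. Both erythrocyte-bound groups were above their free antigen without overlap, by 1.03 ± 0.11 for the peptide and 0.48 ± 0.10 for the protein. For Xcl1 the protein effect was 1.17 (adjusted p = 0.096) beside 3.19 for the peptide, and the difference of 2.02 was called (adjusted p = 0.0068).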

How the data were processed

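Poly(A) RNA of sorted OT-I cells was sequenced from stranded libraries. Per the submitters' processing notes, bcl2fastq 2.17.1.14, STAR 2.4.2 and edgeR were used with GRCm38 (mm10), and counting is not stated to use strand. The authors deposited log2 RPKM values for 10106 genes, with the prior count not given in the sources used here. The scale was read from the values, and base 2 was checked by the sum of RPKM times exon length per library, which was 1764368 to 2042896, against 22638320 to 37606456 with base e. Depth is unknown, and no intervals for counts are given.

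Here, 313 genes with a mean under 1 RPKM over all libraries were removed, leaving 9793. limma 3.58.1 (R 4.3.3) with a mean-variance trend was fitted to all 14 libraries in 5 groups (9 residual degrees of freedom), and tested on simulated data. The simulation gave every group the same spread, so it could not show the effect of the wider spread in SIINFEKL. Named genes were the 8 largest rises and 8 largest falls (called, groups not overlapping, mean of at least 4 RPKM in the higher group), up to 3 per list by adjusted p, 27 core genes and the 5 largest differences from the protein pair each way. The GENCODE annotation (GRCm38) gave positions, exon lengths and overlaps for 10039 genes, and RefSeq gave start-site sequences. The members and the 23 lists were chosen with earlier results of these data known. Some genes that the rule names are not reported here. Alternatives covered normalization, pseudocounts of 0.1 and 1, filters, weights, sample choice, a replicate block and leaving out each library.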

Additional observations from a re-analysis of the deposited data

Results flagged for a closer look

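The results below were singled out because the effect of erythrocyte binding on the peptide differed from its effect on the protein by a test of the difference itself (limma, Benjamini-Hochberg over 9793 genes). Over all genes, 3694 differed. Each value is the log2 fold change of TER119-SIINFEKL over SIINFEKL minus that of ERY1-OVA over OVA. Among the largest positive differences were 4.95 ± 0.53 for Orc1, 4.60 ± 0.60 for Il2ra, 4.47 ± 0.73 for Mcm10 and 4.31 ± 0.82 for Fignl1 (SE, adjusted p from 3e-05 to 0.0013). The 5 largest negative differences were -2.73 ± 0.59 for Gm10521, -2.58 ± 0.80 for 2010016I18Rik, -2.53 ± 0.70 for Phyhd1, -2.52 ± 0.47 for Gabbr1 and -2.43 ± 0.63 for Chrnb1 (adjusted p from 0.0012 to 0.021). The peptide effect of Phyhd1, 2010016I18Rik, Gm10521 and Chrnb1 was no longer called without SIINFEKL replicate 1 (-1.28 to -0.70). That of Chrnb1 was also lost without TER119-SIINFEKL replicate 1 (-1.23), and that of 2010016I18Rik without TER119-SIINFEKL replicate 1 or 3 (-1.61 and -1.75).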

How the results depend on the processing

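The 3664 called genes numbered 3176 to 3921 under array weights (whose estimation stopped before its tolerance), other normalizations, pseudocounts, filters, moderation settings, the Naive group alone beside the peptide groups, and a correction for length and GC. They numbered 2185 with weights per group, 2131 from the peptide groups only and 941 with a 2-fold requirement, and 2879 to 3774 when 1 library was left out, the lowest without SIINFEKL replicate 2. Quantile normalization put 46.1% of calls higher, against 54.5% in the report. The 3694 genes that differed between peptide and protein became 1740 with a 2-fold requirement (1086 more positive and 654 more negative). They numbered 2919 with weights per group, 4195 with array weights and 3134 to 3593 without 1 library. Under quantile normalization 47.3% were more positive. Labels give both peptide groups the replicate numbers 1 and 2 and do not say that a number pairs libraries. With the replicate block 3579 genes were called, 3415 of them shared with the fit without it, and 3608 differed from the protein; deviations of same-numbered libraries correlated at -0.114 and -0.218. Without SIINFEKL replicate 2, Lag3 was at -1.11 and Nrn1 at -1.40, opposite in sign to the report, and without SIINFEKL replicate 1 they were at 2.75 and 1.74. Of the 82 called genes that the naming rule took, 67 were called under every alternative and 15 lost the call under at least 1. That tally leaves out other called genes in the text, of which Egr3, Ltb, Tnfsf8, Cst7, Cd160, Cd200, Foxo1, Lef1, Bach2, Tcf7, Itgb1, Itgb7, Socs3, Mx1, Rtp4, Irf7, Zbp1, Bcl2a1b and Mcl1 lost the call without at least 1 library. The cause of these changes was not tested. SIINFEKL has 2 libraries, and the unknown depth limits what low genes such as Orc1 and Il2ra can show.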

Other observations

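Of 23 tested regulators of apoptosis 5 rose and 2 fell (30.4% called against 37.4% of all genes). Bcl2l1, which encodes the survival protein BCL-XL, rose by 1.30 ± 0.16 (limma, adjusted p = 7.7e-05), while Cflar, an inhibitor of death receptor signals, fell by 0.65 ± 0.15 and Mcl1, another survival gene, fell by 0.34 ± 0.10. The Mcl1 call was lost without TER119-SIINFEKL replicate 2 or 3 or SIINFEKL replicate 2 (-0.33 to -0.29). Bcl2a1b, which has near-identical copies, rose by 1.56 ± 0.42, but without SIINFEKL replicate 2 it was at 0.60 and not called, and 1 gene of the list was then higher. Without SIINFEKL replicate 1, 4 were lower, and without TER119-SIINFEKL replicate 2 or 3, 1 was. Of 22 tested genes of cholesterol synthesis 8 rose and none fell (36.4% called against 37.4% of all genes), and without SIINFEKL replicate 1 the counts were 4 and 2. Idi1, isopentenyl diphosphate isomerase, rose by 0.98 ± 0.20 and Cyp51, a sterol demethylase, by 0.77 ± 0.13. Of 16 tested immediate-early genes, which respond to cell handling, none rose and Btg2 fell by 0.69 ± 0.18, a call lost without SIINFEKL replicate 1.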
